A study of Mus musculus with 6 samples.

Results

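The genes described here are the ATP-binding cassette (ABC) transporter superfamily of the mouse, measured in colon epithelium with and without dietary ursodeoxycholic acid (UDCA). They were chosen by name: every probe set whose platform annotation gives a single gene symbol made of Abc, a subfamily letter from a to g and a number. This gave 36 genes with 65 probe sets, out of 12393 named genes in a table of 22690 probe sets. Where a gene had several probe sets (15 genes), the probe set with the highest mean over the 6 arrays stands for the gene. The members are 7 Abca, 8 Abcb, 8 Abcc, 3 Abcd, 1 Abce, 3 Abcf and 6 Abcg genes. Tap1, Tap2 and Cftr belong to the same protein superfamily under other symbols and are given as neighbours, not as members. Abcc4 was not analysed here.

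The control mice ate a standard diet and the treated mice a diet with 0.4% UDCA, a hydrophilic bile acid. Each array carries colon epithelium RNA combined from 2 animals, so that 3 control arrays stand for 6 animals and 3 UDCA arrays for 6 others. Pools are called by the animal numbers in their titles (1+2, 3+4 and 5+6), and the same number in both groups is not stated to mark a shared cage, day or animal. The sources used here do not give strain, age or feeding time. The labels also carry the name of IEC-6, a rat intestinal cell line, in a cell line tag, whereas tissue, source and organism name mouse colon.

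ABC proteins bind and hydrolyse ATP in a conserved cassette. Most of them sit in membranes and use that energy to move lipids, bile acids, drugs or conjugated metabolites across them, and a few are found inside mitochondria, peroxisomes or lysosomes. The Abce and Abcf proteins carry the cassettes without membrane-spanning parts and act on ribosomes. In intestinal epithelium, members of the Abcb, Abcc and Abcg subfamilies return foreign compounds, conjugates and plant sterols to the lumen or pass them to the blood.

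Signals below are intensities after quantile normalization of the 6 arrays, which gives every array the same distribution of values. They have no absolute unit, and different probe sets are not compared with each other in level. Log2 fold changes are UDCA minus control on the log2(signal + 16) scale, which understates the change of dim genes. The test was limma, fitted to the brighter 50% of probe sets (11313), ranked by their mean over all 6 arrays. That filter begins at a signal of 75.7. On it, 17 members lay above and 19 below. The members nearest above it were Abcg5, Abca1 and Abcf2, with signals of 98.3, 99.1 and 111, and the nearest below were Abcc10, Abcg8 and Abcd4, with 72.3, 70.3 and 68.1 (means taken on the log scale).

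The arrays carried the transcripts of colon epithelium. All 7 colonocyte markers lay above the filter, with Car1 between 6650 and 7078 and Epcam between 6495 and 7022, and so did the 4 goblet and 4 enteroendocrine markers measured. None of these 15 passed in limma. All 4 enteroendocrine markers were under 0.05 before adjustment, against 14.4% of all genes. Their log2 fold changes were 1.10 for Gcg and 0.37 for Pyy, hormone genes, and -0.55 for Chga and -0.41 for Chgb, granule protein genes. The goblet marker Tff3 was also under 0.05 before adjustment, at -0.25. None of the markers of T and NK cells (4 measured), B and plasma cells (3), endothelium (4) or fibroblasts (4) lay above the filter. Nor did those of smooth muscle (4), neurons and glia (3), adipocytes (2) or erythroid cells (2), so none of these was tested. The 5 macrophage and mast cell markers also lay below the filter, with a summed signal of 73.2 to 122.9 in control pools and 123.9 to 166 in UDCA pools. The 4 T and NK cell markers summed to 21.4 to 33.1 and 31.6 to 41.6. The part of all these cells in the results below was not tested. Before normalization the array medians ran from 67.4 to 87.3. In such bulk samples, fewer cells of a type and less RNA per cell cannot be told apart.

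No ABC gene passed the test. Of the 17 members above the filter, 0 had a limma adjusted p under 0.05, 5 had an unadjusted p under 0.05, and the smallest adjusted p was 0.286, for Abcf2. Over all genes 1 of 6770 passed (0.0148%), Apoc2, which encodes the activator of lipoprotein lipase (log2 fold change 1.56, SE 0.13, adjusted p of 0.0198 by limma). Without pool 1+2 or 3+4 of either group 0 genes passed in limma (481 to 688 were under 0.05 before adjustment), without control pool 5+6 there were 23, and on the values as deposited 53, none of them a member. Of all genes 14.4% had an unadjusted p under 0.05, against 29.4% of the members, a difference in shares that was not tested. The 5 members were Abce1, Abcf2, Abcf3 and Abcg2, with higher signals in the UDCA pools (7.28% of all genes), and Abcg5, with lower ones (7.1%). That number fell to 3 when pool 1+2 or pool 3+4 of either group was left out. Of the 17 members 10 lay on the positive side (50.2% of all genes did) and 7 on the negative, and their median log2 fold change was 0.01 against 0.00 over all genes. Median sizes without the sign were 0.22 for the members and 0.14 for all genes, and the members' SE ran from 0.11 to 0.33. UDCA pools lay wholly above control pools in 2 members and wholly below in 0. Over all genes 11.1% lay above, 8.64% below and 19.7% on either side, so the members' share is near the background.

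**Figure D1:**
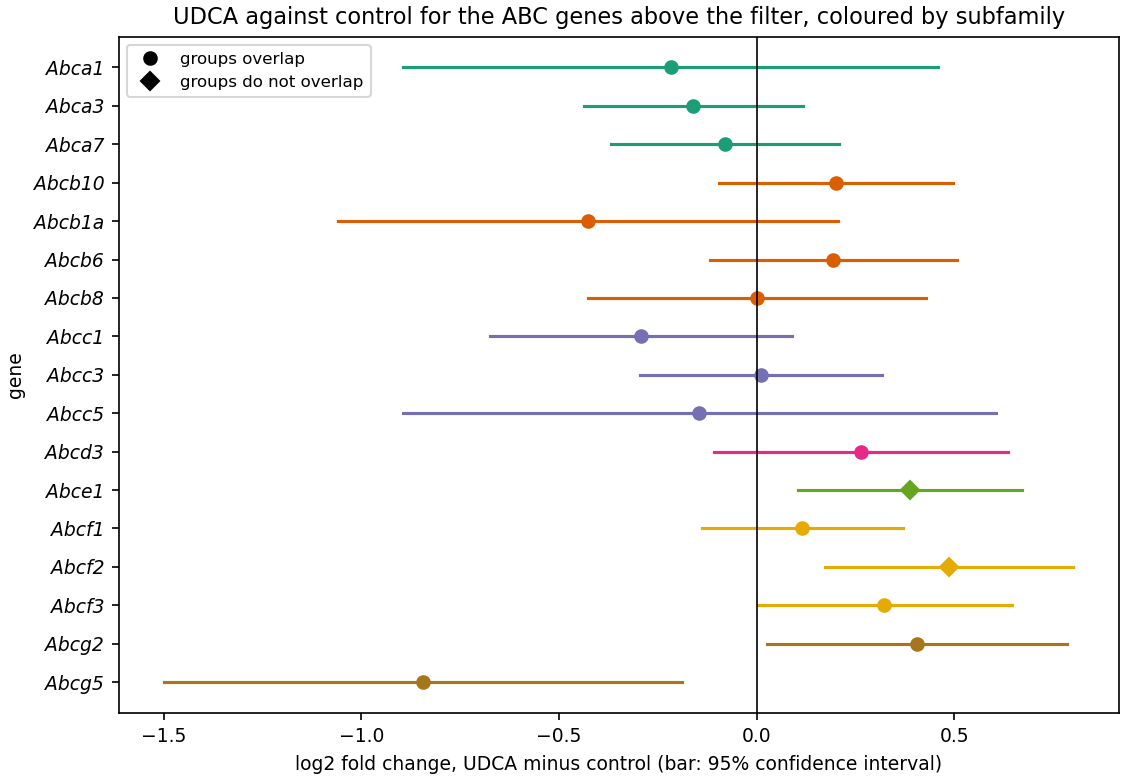
Log2 fold change of UDCA minus control (horizontal axis) for each of the 17 ABC genes above the filter (vertical axis), with 95% confidence intervals as bars and subfamilies as colours. Diamonds mark genes whose groups do not overlap, Abce1 and Abcf2. The intervals of Abce1, Abcf2, Abcf3, Abcg2 and Abcg5 leave out 0, and none of these genes passed after adjustment over all probe sets.

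The members that act on ribosomes lay on 1 side. All 4 Abce and Abcf genes were above the filter and all had positive log2 fold changes, with a median of 0.36, whereas the 13 members of the transporter subfamilies were divided into 6 positive and 7 negative with a median of -0.08. The same holds for single probe sets: 9 of 9 probe sets of Abce1 and the Abcf genes above the filter were positive. For the transporters it was 8 of 17, and over all probe sets 51.3%. The 9 were also positive as deposited, after median centring and after trimmed mean scaling. Under those settings the median log2 fold change over all genes was itself 0.08, 0.07 and -0.02, against 0.001 in the main setting. UDCA pools lay wholly above control pools in 5 of those 9 probe sets and in 1 of the 17, with 10.9% over all probe sets. The probe sets of 1 gene are readings of the same gene on the same arrays and are not independent. This contrast was seen in the data and then counted, so it is a description with no test, and 0 of these probe sets passed in limma after adjustment (0.00884% of all probe sets; 5 of the 9 and 3 of the 17 at an unadjusted p under 0.05, against 13.7% of all probe sets).

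Abce1 encodes the ATPase that splits ribosomes after translation ends. Its signals were 539, 442 and 581 in control pools 1+2, 3+4 and 5+6, and 646, 730.1 and 671 in UDCA pools 1+2, 3+4 and 5+6. All UDCA pools were higher than all control pools, and UDCA pool 1+2 and control pool 5+6 lay closest. This gave a log2 fold change of 0.39 (SE 0.12, 95% interval 0.10 to 0.67, with an adjusted p of 0.314 by limma). A separate probe set of the gene gave 322, 276 and 304 against 395, 429 and 371, also without overlap, and a log2 fold change of 0.39 (SE 0.11, with an adjusted p of 0.285 by limma). For Abce1, as for Abcf2, the exact two-sided permutation p over the 6 arrays was 0.1, the smallest that 3 against 3 arrays can give.

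Abcf2, an ABC protein without membrane segments whose yeast relative works in ribosome assembly, had signals of 79.6, 96.3 and 98.1 in the control pools. In the UDCA pools it had 150.4, 135 and 119, so that the groups again did not overlap. Its log2 fold change was 0.49 (SE 0.14, 95% interval 0.17 to 0.80, with an adjusted p of 0.286 by limma). Another probe set of Abcf2 lay below the filter and was not tested. It had 23.1, 25.6 and 25.7 in control pools and 16.6, 20.4 and 28.2 in UDCA pools, which overlapped. Abcf3, a relative of the yeast activator of the Gcn2 kinase, had 139, 158 and 147 in control pools and 221, 195 and 155 in UDCA pools. UDCA pool 5+6 lay inside the control range there, just under control pool 3+4, while the other UDCA pools lay above it. Its log2 fold change was 0.32 (SE 0.14, 95% interval 0.002 to 0.65, with an adjusted p of 0.364 by limma), and its second probe set above the filter had 0.23 (0.19 for the mean of its probe sets), with UDCA pools (97.3, 128 and 100.3) above control pools (93.1, 89.9 and 85.9).

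Abcf1, which takes part in the start of translation, had 600.3, 648 and 585 in control pools and 600.5, 744 and 651 in UDCA pools. The ranges overlapped, with UDCA pool 1+2 at the level of control pool 1+2. Its log2 fold change was 0.11 in the probe set with the highest mean (95% interval -0.14 to 0.37), 0.03 without UDCA pool 3+4 and 0.22 on the values as deposited. Its other 3 probe sets above the filter had 0.32, 0.15 and 0.08. In the first of these the UDCA pools (281, 298 and 346) lay above the control pools (278, 230.1 and 226), by a narrow margin at control pool 1+2. Its remaining 2 probe sets were dim, at 5.9 to 27.8, and had UDCA above control in one and below in the other.

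**Figure D2:**
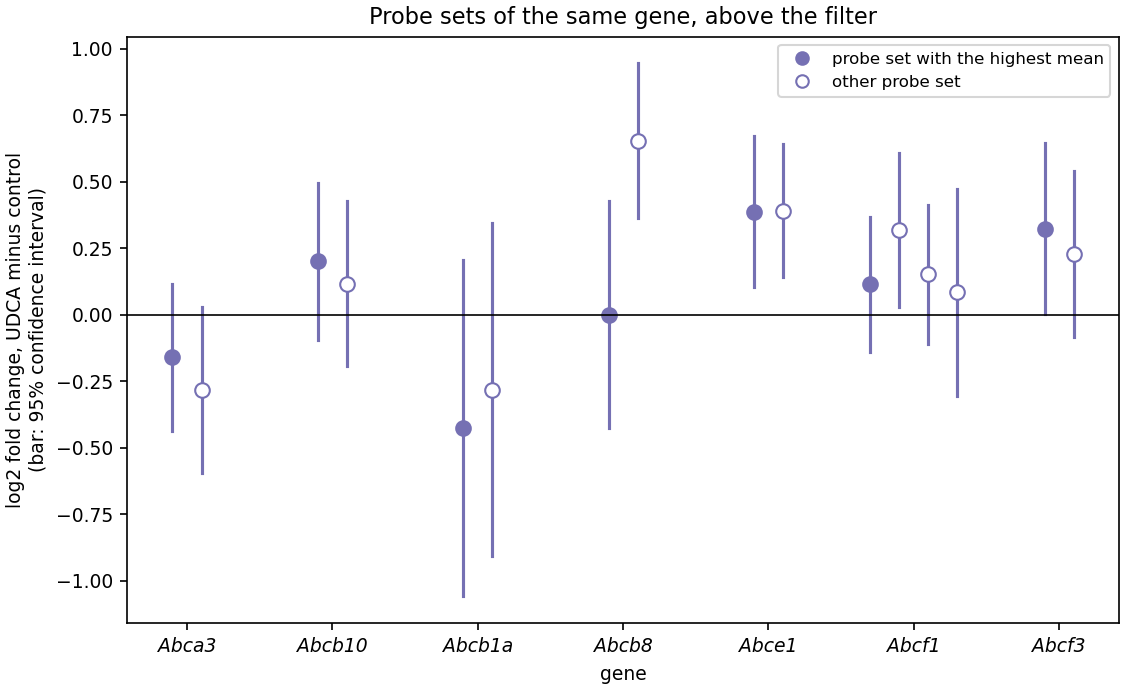
Log2 fold change of UDCA minus control (vertical axis, bars are 95% confidence intervals) for each probe set above the filter of the 7 ABC genes that have several, with the probe set of the highest mean filled. Probe sets of Abce1 (0.39 and 0.39), Abcf1 (0.08 to 0.32) and Abcf3 (0.23 and 0.32) lie above 0, and those of Abcb8 differ (0.00 and 0.65).

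Among partners of these proteins, a list of ribosome recycling and translation factors had 6 genes above the filter. Of these, 0 passed in limma in either direction and, against 14.4% of all genes, 1 was under 0.05 before adjustment. That gene was Gspt1, the release factor eRF3a, with a log2 fold change of 0.40 (SE 0.14, with an adjusted p of 0.314 by limma). Eif3b had 0.19, the recycling factor Pelo 0.13 and the release factor Etf1 -0.08, and 3 of the 6 were positive.

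The sterol transporters of the Abcg subfamily bear on what an enterocyte returns to the lumen. Abcg5 and Abcg8 encode the partners of 1 heterodimer that exports plant sterols and cholesterol. Both genes have annotated starts at the same short stretch of chromosome 17, read in opposite directions. The 109 bases between a start of Abcg5 and a start of Abcg8 are shown, and of these genes 1 was above the filter. In RefSeq's GRCm38.p6 the stretch is chr17:84683012-84683120, given on the plus strand with the Abcg5 start to its left and this Abcg8 start to its right. A further annotated start of Abcg8 lies outside it, and the annotated span of Abcg8 overlaps it.
Abcg5-Abcg8 interval: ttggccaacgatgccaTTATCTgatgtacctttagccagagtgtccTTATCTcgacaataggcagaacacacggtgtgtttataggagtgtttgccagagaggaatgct
Capitals mark the letters of a GATA factor motif, AGATAA on the minus strand. It was found 2 times, and 4.03% of windows of the same length before the starts of 27025 genes hold it at least 1 time on either strand. The other motifs searched on both strands were CACGTG (in 3.37% of such windows), GGGCGG (26.0%), TGACNNNGC (5.22%), CCAAT (20.8%), the LRH-1 motif (0.47%), and the direct repeat 4 and inverted repeat 1 forms of the nuclear receptor motif (0.0074% and 0.0037%). Their letters are not in this stretch. A match is a description of letters, not a bound site.

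Abcg5 had signals of 191, 143 and 93.1 in control pools and 53.2, 56.0 and 109 in UDCA pools. UDCA pools 1+2 and 3+4 lay below every control pool, but UDCA pool 5+6 lay above control pool 5+6, so the groups overlapped. The log2 fold change was -0.84 (SE 0.29, 95% interval -1.50 to -0.19, with an adjusted p of 0.314 by limma), from group means of 142 ± 49.0 and 72.6 ± 31.1 (SD, n = 3). With 1 array left out it ran from -0.63 without control pool 1+2 to -1.12 without UDCA pool 5+6, and the adjusted p by limma from 0.125 without control pool 5+6 to 0.699 without control pool 1+2. As deposited, with no scaling, it was -0.82 (limma adjusted p = 0.0694), and with a pseudocount of 64 it was -0.59 (limma adjusted p = 0.312). Its within-group SD of 0.47 on the log2 scale was larger than that of 97.1% of tested genes.

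Abcg8 had 84.4, 73.1 and 60.9 in control pools and 62.1, 69.1 and 74.4 in UDCA pools. These values overlapped and lay below the filter on average, so its probe set was not tested. Abcg1, which passes cholesterol to lipoproteins, had 78.7, 60.6 and 52.1 in control pools and 55.2, 47.5 and 47.9 in UDCA pools, also below the filter. Abca1, the exporter of cholesterol and phospholipid to apolipoprotein A-I, had 116, 132 and 82.2 in control pools and 147, 53.1 and 92.3 in UDCA pools. Its UDCA pools held both the highest and the lowest value of the 6. The log2 fold change was -0.22 (95% interval -0.90 to 0.46, with an adjusted p of 0.754 by limma), and without UDCA pool 3+4 it turned to 0.10.

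A list of sterol uptake, storage and efflux genes outside the family had 6 genes above the filter, of which 0 passed in limma. Under 0.05 before adjustment were 2, both lower, against 14.4% of all genes. Osbpl1a, an oxysterol binding protein, had a log2 fold change of -0.57 (SE 0.18, with an adjusted p of 0.314 by limma) and Mylip, which marks the LDL receptor for degradation, -0.61 (SE 0.22, with an adjusted p of 0.317 by limma). Npc2 and Stard3, carriers of cholesterol in and near lysosomes, had -0.24 and -0.23. Small intestine markers differed between pools as well. The sum of the 5 measured was 413 to 1913 in control pools and 1487 to 2744 in UDCA pools, with 2 of the 5 above the filter. Fabp2, the intestinal fatty acid binding protein, was picked after its values were seen. It had 226, 391 and 1672 in control pools 1+2, 3+4 and 5+6, and 1737, 1492 and 1181 in UDCA pools. Control pool 5+6, with the most Fabp2 of the control pools, had the least Abcg5, and UDCA pool 5+6, with the least Fabp2 of the UDCA pools, had the most Abcg5. Fabp6, the other marker above the filter, had 151.5, 235.3 and 221.5 in control pools, with the most in pool 3+4. In UDCA pools Fabp6 had 967, 431 and 271, with the least in pool 5+6. The part of these markers in the Abcg5 result was not tested.

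**Figure D3:**
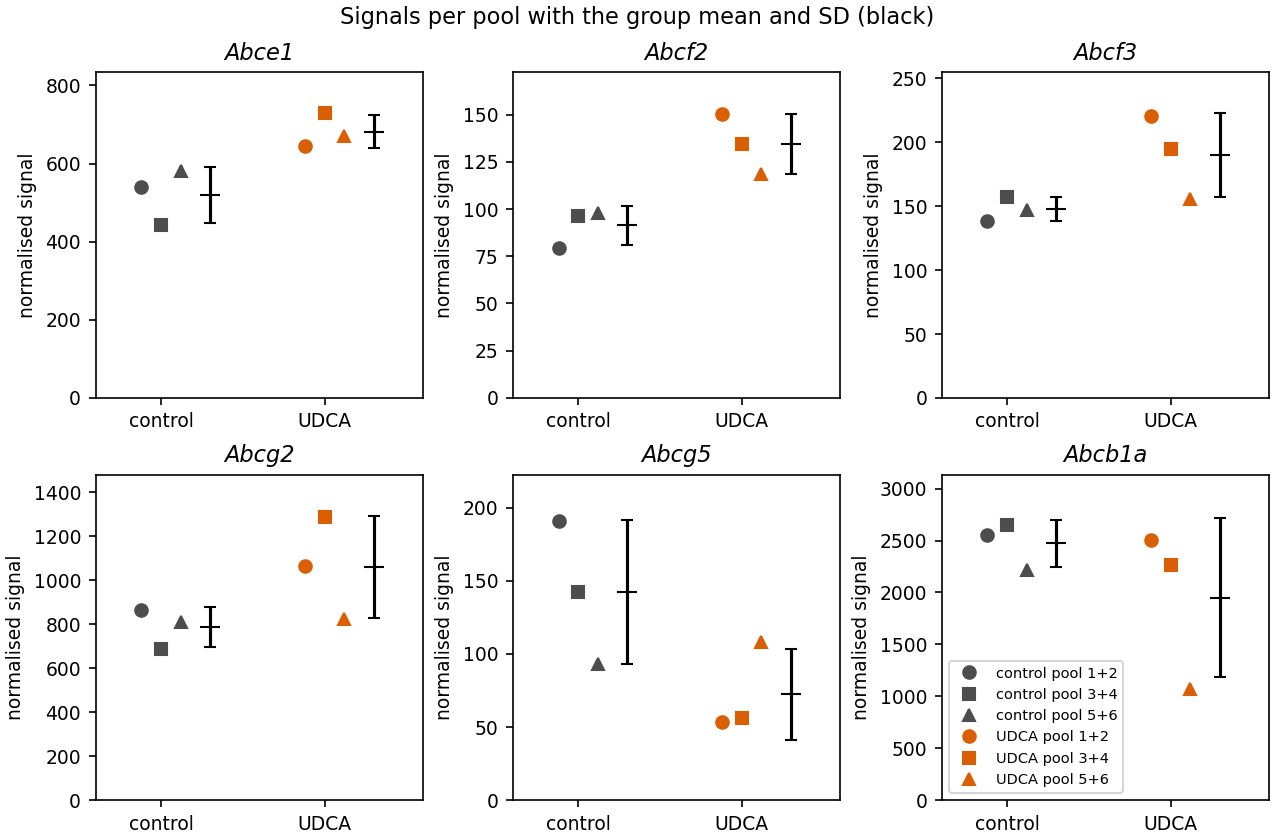
Normalised signal (vertical axes, from 0) of 6 ABC genes in each control and UDCA pool, with the group mean and SD in black (n = 3). Abce1 and Abcf2 separate the groups, Abcf3, Abcg2 and Abcg5 overlap at UDCA pool 5+6, and Abcb1a has that pool at 1075, below the other 5.

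Abcg2, the breast cancer resistance protein of the apical membrane, exports drugs, urate and sulfated compounds. It had signals of 865, 686 and 809.8 in control pools and 1065, 1289 and 825 in UDCA pools. UDCA pools 1+2 and 3+4 lay above every control pool, and UDCA pool 5+6 lay within the control range. The log2 fold change was 0.41 (SE 0.17, 95% interval 0.03 to 0.78, with an adjusted p of 0.350 by limma), and without UDCA pool 3+4 it was 0.25. Abcg4, a relative of Abcg1, and Abcg3, a member found in rodents, lay below the filter at 25 to 62.1 and 0.5 to 28.4.

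The drug exporter Abcb1a was set apart by 1 array. Abcb1a encodes a mouse P-glycoprotein, which pumps drugs and other hydrophobic compounds out of enterocytes. Its signals were 2550, 2654 and 2214 in control pools and 2509, 2266 and 1075 in UDCA pools. UDCA pools 1+2 and 3+4 lay within the control range and UDCA pool 5+6 far below it. A separate probe set had 1076 in UDCA pool 5+6 and 2097 to 2558 in the other 5. On the log2 scale the difference was -0.43 (SE 0.28, 95% interval -1.06 to 0.20, with an adjusted p of 0.497 by limma), and it was -0.05 without UDCA pool 5+6 and -0.65 without UDCA pool 1+2. The colonocyte water channel gene Aqp8, picked after its values were seen, had 691.5 in that pool, 5221 and 5337 in the other UDCA pools and 1981 to 3038 in control pools. The chloride exchanger gene Slc26a3, picked likewise, had its lowest value there too (2241, against 2569.8 to 4706 in the other 5). Vil1, Cdh1 and Epcam were also lowest there (2523, 5511 and 6495, with the lowest of the other 5 pools at 2924, 5604 and 6739). Krt20 (3379, other pools 2570.2 to 4574) and Car1 (6883, other pools 6650 to 7078) were not. Thus 5 of the 7 colonocyte markers had their lowest signal in that pool, against 13.0% of all genes. The sum of the 7 markers was 30650 to 33830 in control pools and 27720 to 37140 in UDCA pools. The part of these markers in the Abcb1a result was not tested. The neighbouring genes Abcb1b and Abcb4 lay below the filter. Abcb1b, another P-glycoprotein, had 0.9 to 10.7. Abcb4, which moves phosphatidylcholine into bile, had 33.6, 34.8 and 34.2 in control pools and 56.7, 37.8 and 51.2 in UDCA pools, all UDCA pools above all control pools at a level too dim for the test.

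No exporter of bile acids passed the test, and Abcc2 and Abcb11 were too dim to enter it. Abcc3, which moves bile acids and glucuronides to the blood side, had 908, 979 and 945 in control pools and 1099, 1007 and 774 in UDCA pools. The UDCA pools spread around the control pools on both sides, and the log2 fold change was 0.01 (SE 0.13, 95% interval -0.30 to 0.32, with an adjusted p of 0.978 by limma), which leaves room for changes of either sign within that interval. Abcc2, the apical exporter of conjugates, had 4.5, 10.9 and 8.1 in control pools and 15.1, 13.5 and 12.1 in UDCA pools, which did not overlap. Abcb11, the bile salt export pump of hepatocytes, had 3.6, 5.6 and 17.7 in control pools and 2.1, 1.7 and 3.7 in UDCA pools. Both lay far below the filter. Of the 19 members below it, Abcc2 and Abcb4 had groups that did not overlap. The share over all genes below it was not counted, and among genes above it UDCA pools lay wholly above control pools in 11.1%.

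In the list of bile acid uptake and efflux genes outside the family, 2 of 5 measured genes were above the filter. Fabp6, the ileal bile acid binding protein, had a log2 fold change of 1.22 and Slco2a1, a carrier of prostaglandins, -0.80 (limma adjusted p = 0.314 and 0.355). Of 9 conjugating enzymes, whose products ABC exporters carry, 0 passed in limma, and, against 14.4% of all genes, 2 were under 0.05 before adjustment. These were the sulfotransferase genes Sult1c2 and Sult1a1, with log2 fold changes of -0.96 and -0.63. The glutathione transferase genes Gstm1 and Gsta4 had 0.20 and -0.19.

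The other Abcc members above the filter were Abcc1 and Abcc5. Abcc1, which exports glutathione conjugates, had 362, 332 and 282 in control pools and 243, 336 and 218 in UDCA pools. Its groups overlapped, at -0.29 on the log2 scale (SE 0.17, with an adjusted p of 0.452 by limma), which was -0.46 without UDCA pool 3+4 and -0.17 without UDCA pool 5+6. Abcc5, an exporter of cyclic nucleotides, had the widest spread of the members within groups, an SD of 0.55 on the log2 scale. Its control pools ran from 88.4 to 180.1 and its UDCA pools from 64 to 156, and its log2 fold change of -0.14 turned to 0.22 without UDCA pool 5+6 and to 0.06 without control pool 5+6. The 6 other Abcc5 probe sets lay below the filter, at 0.7 to 56.0. Abcc6, Abcc8, Abcc9 and Abcc10 also lay below it. Abcc8 and Abcc9, which form channels regulated by ATP with Kcnj11 and Kcnj8, had at most 24.5 and 6.0, and neither channel partner was above the filter.

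Among members of organelle membranes, Abcd3, Abcb10 and Abcb6 had higher mean signals in the UDCA pools without passing the test. Abcd3, which imports fatty acids and bile acid precursors into peroxisomes, had 1891, 1444 and 2048 in control pools and 2601, 2070.4 and 1804 in UDCA pools. UDCA pool 5+6 lay within the control range, and the log2 fold change was 0.26 (SE 0.16, 95% interval -0.11 to 0.64, with an adjusted p of 0.482 by limma). It was 0.12 without control pool 3+4 and 0.12 without UDCA pool 1+2, and 0.40 on the values as deposited. The mitochondrial proteins Abcb10, needed for heme synthesis, and Abcb6, a porphyrin carrier found in several membranes, had 0.20 (SE 0.13) and 0.19 (SE 0.14) with overlapping groups. Abcb10 was at 0.12 without control pool 1+2 and 0.13 without UDCA pool 3+4, and Abcb6 at 0.07 without control pool 3+4 and 0.30 without control pool 5+6. Of 9 peroxisomal genes above the filter and of 8 iron-sulfur cluster, heme and cobalamin genes, 0 passed in limma and 0 were under 0.05 before adjustment. In these lists 5 of the 9 and 6 of the 8 were positive. The peroxisome import factors Pex19 and Pex14 had 0.21 and 0.28, Hsd17b4 and Amacr of peroxisomal oxidation 0.18 and 0.16. Alas1, the first enzyme of heme synthesis, had 0.18, the cysteine desulfurase Nfs1 0.15, and the cobalamin genes Mmachc and Lmbrd1 0.14 and -0.09. Of these, Pex19 alone had UDCA pools wholly above control pools.

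The probe sets of Abcb8, a mitochondrial inner membrane transporter, disagreed. The one with the highest mean had 337, 215 and 223 in control pools and 279, 208 and 279 in UDCA pools, with a log2 fold change of 0.00 (SE 0.19). The other had 79.2, 102 and 87.3 in control pools and 149, 143 and 156 in UDCA pools, which did not overlap. Its log2 fold change of 0.65 (SE 0.13, 95% interval 0.36 to 0.94, with an adjusted p of 0.264 by limma) had the smallest unadjusted p of the 26 member probe sets above the filter, 7.49e-04. With the mean of both probe sets the gene was at 0.33 (limma adjusted p = 0.307). Whether the probe sets read different transcripts was not tested.

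**Figure D4:**
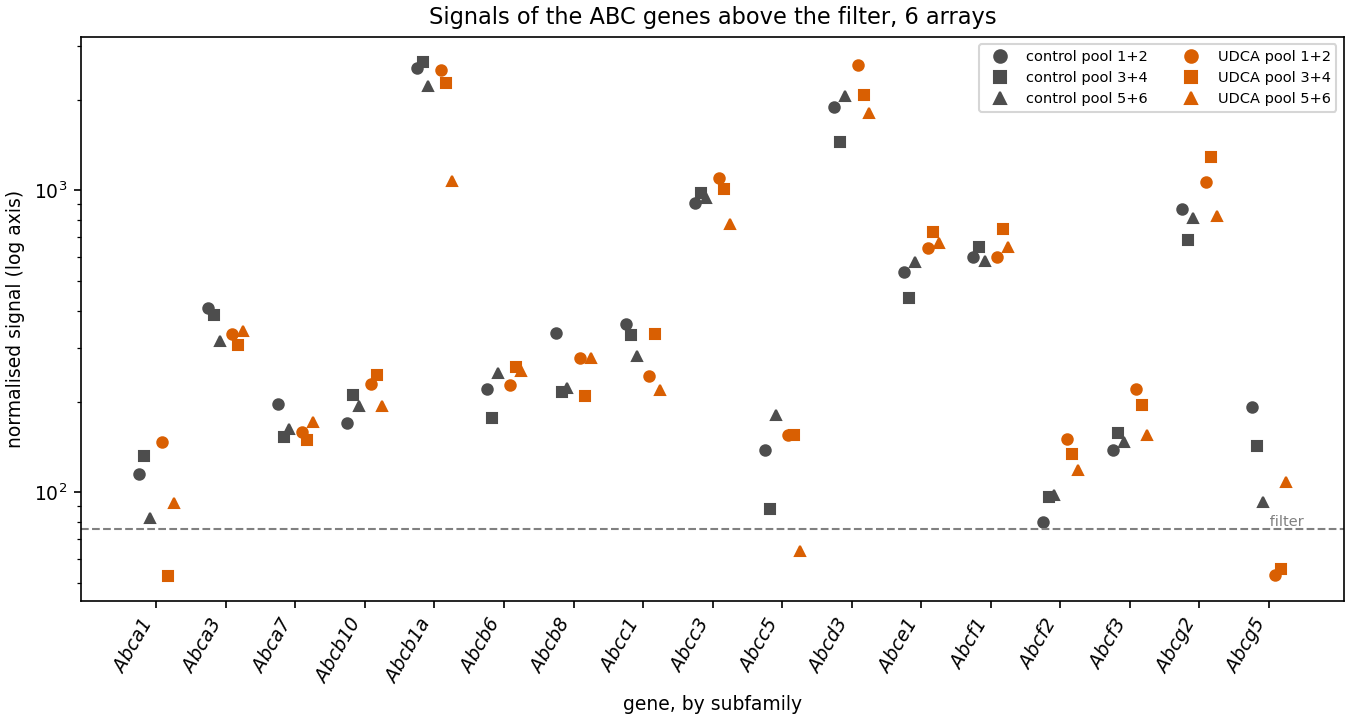
Normalised signal (vertical log axis) of the 17 ABC genes above the filter in each of the 6 pools, control in grey and UDCA in orange, with the filter level of 75.7 as a dashed line. Levels of different genes are read by different probes and are not comparable. UDCA pool 5+6 (orange triangles) is the lowest of the 6 pools in 4 genes and the highest in 0. Control pool 3+4 and UDCA pool 3+4 are also the lowest in 4 genes each.

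The remaining members above the filter were Abca3, a carrier of phospholipids, and Abca7, also a lipid transporter. Abca3 had 409, 386 and 318 in control pools and 336, 309 and 342 in UDCA pools, that is -0.16 on the log2 scale (SE 0.12, with an adjusted p of 0.562 by limma), and its other probe set above the filter had -0.28. The first was at -0.09 without control pool 1+2, -0.26 without control pool 5+6 and -0.08 on the values as deposited. Abca7 had -0.08 (SE 0.13, with an adjusted p of 0.796 by limma), turning to 0.02 without control pool 1+2.

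Across the 17 members, 4 stood out by their spread within groups: Abcc5, Abca1, Abcb1a and Abcg5 exceeded 97.1% to 98.1% of tested genes. The median SD within groups was 0.19 for the members and 0.15 for all genes on the log2 scale. UDCA pool 5+6 held the highest signal in 0 members and the lowest in 4 (23.5%), whereas over all genes these shares were 17.2% and 13.0%. Control pool 3+4 and UDCA pool 3+4 also held the lowest signal in 4 members each, with 19.2% and 17.5% over all genes. UDCA pools 1+2 and 3+4 each held the highest signal in 5 members, as did control pool 1+2. Of the 5 members with an unadjusted p under 0.05, the value of UDCA pool 5+6 lay nearer to the control range than those of the other UDCA pools, or inside it, in Abcf2, Abcf3, Abcg2 and Abcg5, the last above control pool 5+6.

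The 19 members below the filter had arithmetic mean signals from 1.38 to 74.7, and in 9 of them no array reached 25. This group holds Abca2, Abca4, Abca8a and Abca8b, Abcb1b, Abcb4, Abcb9 and Abcb11, the 5 Abcc genes named above, Abcd2 and Abcd4, and Abcg1, Abcg3, Abcg4 and Abcg8. Abca4, the retinal transporter of photoreceptors, had 0.5 to 5.5, and Abcd2, a peroxisomal carrier of very long chain fatty acids, 0.4 to 4.2. Abcd4, which takes part in cobalamin release from lysosomes, had 50.6 to 79.4. Abcb9, a lysosomal peptide carrier related to the Tap proteins, had 20.7 to 66.9, and Abcc10 54 to 116. Abca2, Abca8a and Abca8b had 4.5 to 26.9, 11.3 to 22.6 and 3.5 to 10.5, and Abcc6, in which human mutations cause calcification of elastic tissue, 13.3 to 28.7. Low signal on this array does not show that a transcript is absent.

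**Figure D5:**
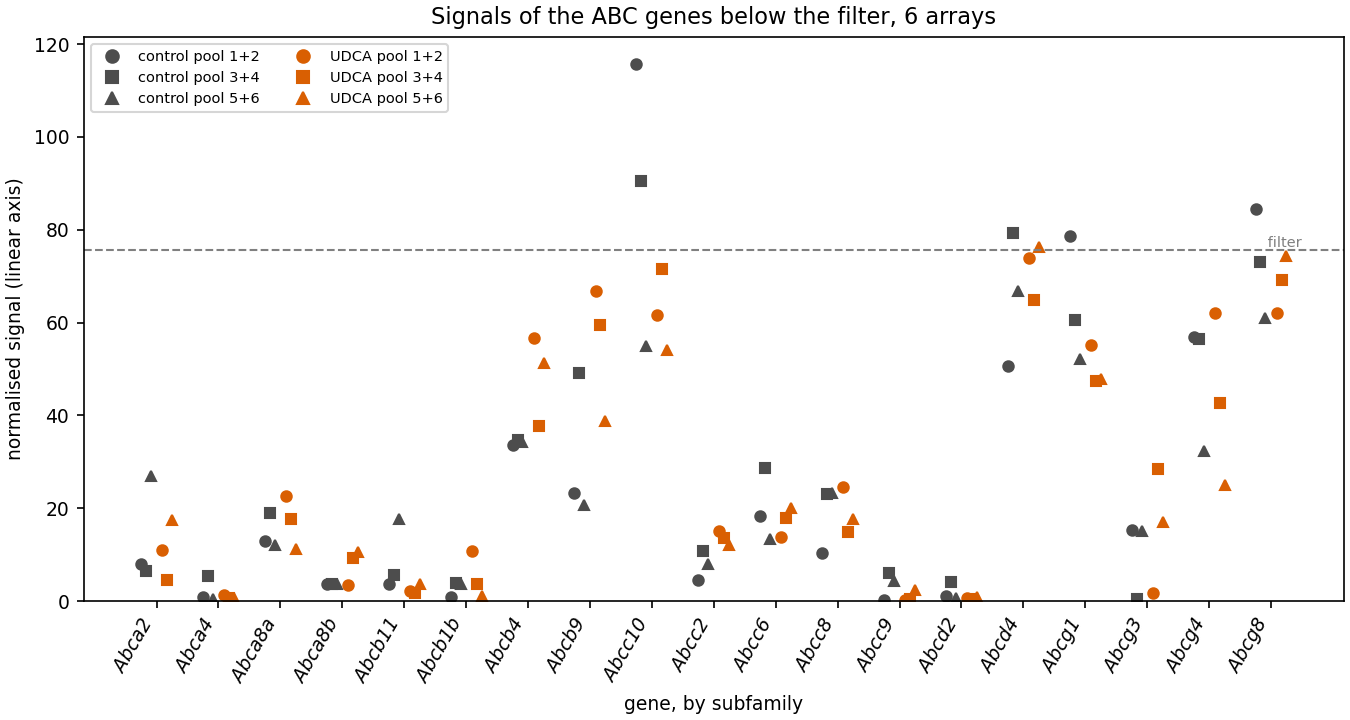
Normalised signal (vertical linear axis) of the 19 ABC genes below the filter in each of the 6 pools, control in grey and UDCA in orange. Signals of Abca4, Abcc9 and Abcd2 stay at 6.0 or less, while Abcd4, Abcg1, Abcg8 and Abcc10 pass the filter level of 75.7 in 1 or 2 pools each and lie below it on average.

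Of the family genes with other symbols, Tap2, a subunit of the peptide transporter for MHC class I loading, had 151, 157 and 178 in control pools and 112, 96.8 and 129 in UDCA pools. All UDCA pools lay below all control pools, a difference of -0.47 on the log2 scale (SE 0.13, with an adjusted p of 0.288 by limma). Its partner Tap1 had 84.7, 112 and 217 in control pools and 118, 72.6 and 123 in UDCA pools, which overlapped (log2 fold change -0.29, SE 0.31). Cftr, the chloride channel of epithelia, had -0.09 (SE 0.19). In the MHC class I loading list, 0 of 9 genes passed in limma. Under 0.05 before adjustment were 3, all lower, against 14.4% of all genes. Tapbp, the chaperone that links the Tap proteins to class I molecules, had -0.46, the immunoproteasome genes Psmb9 and Psmb8 -0.57 and -0.76, and the disulfide isomerase gene Pdia3 0.11. Psmb9 and Psmb8 had overlapping groups.

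Of 12 regulators that are known to act on ABC genes, 0 passed the test in limma. Under 0.05 before adjustment were 2 of the 12, both lower, against 14.4% of all genes. The aryl hydrocarbon receptor gene Ahr, a regulator of Abcg2, had 164, 165 and 148 in control pools and 121, 115 and 119 in UDCA pools. These groups did not overlap, with a log2 fold change of -0.38 (SE 0.11, with an adjusted p of 0.294 by limma). The pregnane X receptor gene Nr1i2, a regulator of Abcb1a, had -0.47 (SE 0.18, with an adjusted p of 0.330 by limma). Cdx2 had 1.01 and Vdr -0.29, both with overlapping groups and the next smallest p-values.

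Of Abce1, Abcf2 and Abcf3, only Abcf2 has the 250 bases before its start shown. Before Abce1 and Abcf3 another annotated gene leaves too short a stretch. The Abcf2 stretch is chr5:24577468-24577717 in RefSeq's GRCm38.p6, on the minus strand, and ends at the base before the first annotated start.
Abcf2 upstream: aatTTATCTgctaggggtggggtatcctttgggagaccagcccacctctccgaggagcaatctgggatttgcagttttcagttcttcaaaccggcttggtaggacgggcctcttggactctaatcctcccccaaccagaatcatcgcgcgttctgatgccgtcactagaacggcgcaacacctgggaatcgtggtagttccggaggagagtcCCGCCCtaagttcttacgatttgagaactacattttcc
Capitals mark 1 GATA motif (AGATAA, in 10.3% of the 27025 windows of that length) and 1 GC box (GGGCGG, in 32.9%), each on the strand opposite to the one shown. Of the other letters searched, CACGTG is in 6.05% of these windows, TGACNNNGC in 10.1%, CCAAT in 34.5%, the LRH-1 motif in 1.31%, and the direct repeat 4 and inverted repeat 1 forms in 0.0111% and 0.0074%, and none of them is in the stretch shown. Of the 36 members, 27 had a promoter in the RefSeq table. The median GC content of the 250 bases before the start was 61.0% in the 14 members above the filter, 54.4% in the 13 below and 52.0% over all genes, with 17, 9 and 6 CpG dinucleotides.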

How the data were processed

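Colon epithelium RNA was measured on 6 Affymetrix arrays, 3 per group. The value table as deposited gives each probe set a linear signal intensity between 0 and 12401, and GCOS is named in the submitters' processing notes, while the sources used here do not give its version, scaling or detection calls. Trimmed means of the deposited intensity values (2% off each end) ran from 238 to 334, so arrays were quantile-normalized as log2(intensity + 16), after leaving out 64 control probe sets. A deposited table of folds was not used, since its control average is not the mean of the control arrays.

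Genes were named from the platform annotation: 20380 probe sets had 1 symbol, 691 several and 1555 were not listed. UDCA minus control was fitted in limma 3.58.1 (R 4.3.3; two-sided moderated test, trend on intensity). Benjamini-Hochberg adjustment ran over the 11313 probe sets tested at a threshold of 0.05. These p-values measure the spread between pools of different animals, and the number of arrays limits the precision.

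The members, the 10 lists, the alternatives and the naming rule were chosen with earlier results of these data known. Each member above the filter is named. Signals per array are given for those with an unadjusted p under 0.05 or groups that do not overlap and for members chosen by name. In each list up to 4 genes with the smallest p are named. Alternatives were other scalings, pseudocounts, filters, eBayes settings, weights per array, a block for the pool number, averaging over probe sets of a gene, a threshold of 0.1 and each array left out in turn. The count of positive Abce and Abcf probe sets was added after seeing the data.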

Additional observations from a re-analysis of the deposited data

How the results depend on the processing

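The count of ABC genes past an adjusted p of 0.05 was 0 in limma under each of the 18 alternative settings and at a threshold of 0.1, with 2 to 6 members at an unadjusted p under 0.05. Of 293 member values under these settings, 278 kept the direction of the main value. The remaining 15 belong to 5 members with log2 fold changes of -0.22 to 0.01. Abcb8 turned to -0.03 with trimmed mean scaling, 0.00 with a pseudocount of 64 and -0.03 with array weights (0.33 with the mean of the gene's probe sets), and Abcc5 to 0.03 with array weights. With 1 array left out, Abca1 ran from -0.52 to 0.10, Abca7 from -0.15 to 0.02, Abcb8 from -0.11 to 0.20, Abcc3 from -0.09 to 0.16 and Abcc5 from -0.39 to 0.22. The cause was not tested.

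With 1 array left out, 3 to 6 members had an unadjusted p under 0.05, and among the upper 25% of probe sets 2 did. There 3 of 3 probe sets of Abce1 and the Abcf genes were positive, because fewer probe sets remain. Without control pool 1+2, 8 of 9 were positive, and with no filter 11 of 13. The genes past the threshold over the whole table numbered 1 with quantile normalization, median centring or trimmed mean scaling, and 53 as deposited. They numbered 0 in limma with no filter, among the upper 25% and with the pool number as a replicate block (1370, 522 and 937 at an unadjusted p under 0.05). With 1 array left out they numbered 0 to 23, the 23 in the fit that lacks control pool 5+6, with 5 in the fit that lacks UDCA pool 5+6. Deviations of same-numbered pools correlated at -0.10, 0.16 and 0.05, and those of pools with unlike numbers at -0.198 to 0.146. With 3 arrays per group these values cannot show whether the pool numbers pair the arrays.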
